A study of Mus musculus with 18 samples.

Results

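The 9 guide strands of the mouse let-7 family were followed through a pseudouridine immunoprecipitation (Ψ-IP) of small RNAs from NIH/3T3 cells. The members, listed by the table as mmu-let-7a-5p, mmu-let-7b-5p, mmu-let-7c-5p, mmu-let-7d-5p, mmu-let-7e-5p, mmu-let-7f-5p, mmu-let-7g-5p, mmu-let-7i-5p and mmu-miR-98-5p, were chosen by name from 1907 mature miRNAs in the count table. NIH/3T3 is an established mouse fibroblast line, obtained here from the ATCC. Small RNA of the Ψ-IP and of the matching input was sequenced in wild-type cells (WT), in cells 3 days into Pus1 knockdown (KD3) and in cells 6 days into Pus1 knockdown (KD6). Each of these 6 groups held 3 libraries, lettered A, B and C, which gave 18 in all, and the labels do not say whether the letters mark separate cultures, so p-values measure the spread between these libraries. The supplementary tables of the study call the knockdown an siRNA treatment, and the level of Pus1 mRNA is not part of a miRNA table, so the knockdown was not checked here. The sample labels give no day for the WT cells and name no control treatment for them. Loss of Pus1 therefore cannot be told apart from time in culture or from the treatment itself.

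let-7 was among the first miRNAs found, and it is conserved from worms to mammals. A guide strand is the strand of the miRNA duplex that is kept in an Argonaute protein, where its seed (bases 2 to 8 from the 5′ end) pairs with target mRNAs. Targets of let-7 include Lin28, Hmga2 and Ras genes, and the family is known for high levels in differentiated cells. Pseudouridine (Ψ) is an isomer of uridine, made after transcription by pseudouridine synthases, of which PUS1 acts on tRNAs and other RNAs. The IP compared what an antibody against Ψ kept with what went in, and the knockdown asked whether that depended on PUS1.

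The mature sequences are shown because the members differ from each other at few bases and differed in their response to the IP. They are from RefSeq (GRCm38.p6, the same assembly as mm10), which held all 9, and capitals mark the seed.
let-7a-5p: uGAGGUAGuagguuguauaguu
let-7b-5p: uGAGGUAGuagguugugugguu
let-7c-5p: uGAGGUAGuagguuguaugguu
let-7d-5p: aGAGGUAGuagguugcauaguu
let-7e-5p: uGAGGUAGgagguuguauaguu
let-7f-5p: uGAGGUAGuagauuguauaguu
let-7g-5p: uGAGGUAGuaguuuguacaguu
let-7i-5p: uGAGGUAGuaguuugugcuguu
miR-98-5p: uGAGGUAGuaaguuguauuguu
All 9 were 22 bases long, shared the seed and had the same base at 14 positions. Counted from the 5′ end, with the base of let-7a-5p first, let-7e-5p differed from let-7a-5p by U9G, let-7f-5p by G12A and let-7c-5p by A19G. let-7b-5p carried A17G and A19G, let-7g-5p carried G12U and U18C, and miR-98-5p carried G11A and A19U. let-7d-5p, with U1A and U16C, was the member without a 5′ U, and let-7i-5p was the most distant from let-7a-5p, with G12U, A17G, U18C and A19U.

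The members came from 12 loci. let-7a-1 (mature strand at chr13:48538239-48538260), let-7f-1 (chr13:48537889-48537910) and let-7d (chr13:48536078-48536099) lay side by side on the minus strand and overlapped exons of the lincRNA 6720427I07Rik. let-7c-2 (chr15:85706616-85706637) and let-7b (chr15:85707325-85707346) lay 621 bases apart on the plus strand and overlapped exons of the noncoding transcript Lncppara. let-7f-2 (chrX:151912353-151912374) and mir-98 (chrX:151913229-151913250) were in an intron of Huwe1, a ubiquitin ligase gene, let-7g (chr9:106178846-106178867) in an intron of Wdr82 and let-7e (chr17:17830366-17830387) in an intron of Spaca6, all on the plus strand with their host genes. let-7a-2 (hairpin at chr9:41536716-41536811) was in an intron of the lincRNA Gm49317, let-7c-1 (chr16:77599672-77599693) was in an intron of Gm11146 on the opposite strand, and let-7i (chr10:122985698-122985719, minus strand) overlapped an exon of the transcribed pseudogene D630033A02Rik.

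Library depth ranged from 3989031 to 15099781 mapped reads in 17 libraries, and KD6 input A held 241109. This library had reads for 382 miRNAs against 576 to 903 in the others, so the results that it moved most are given without it as well. Of 5 fibroblast markers, miR-21a-5p was the highest in the inputs, at 205662 to 533264 CPM, the read count scaled by library size. The others were miR-199a-5p at 11828 to 23530, miR-199a-3p at 7543 to 15078, miR-214-3p at 1091 to 2349 and miR-145a-5p at 637 to 1395. Of 12 markers of other cell types, miR-142a-3p, miR-141-3p, miR-133a-3p, miR-294-3p and miR-295-3p were at 0 in all 9 inputs, another 5 stayed under 2 CPM, miR-122-5p reached 93.8 and miR-9-5p lay at 2457 to 3337. The summed level of these 12 markers was 2501 to 3431 CPM in the inputs and 5913 to 9563 in the IPs, nearly all of it miR-9-5p, and its part in the results was not tested.

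In the inputs, let-7i-5p was the most abundant member in all 3 conditions and miR-98-5p the least. CPM here is scaled by median-ratio factors, so that its sum differs between libraries, and in RNA from a whole culture fewer cells with a miRNA cannot be told apart from less of it per cell. In WT input, let-7i-5p stood at 93868, 86199 and 76345 CPM in replicates A, B and C. let-7f-5p followed at 37716, 36347 and 31380 CPM, and let-7g-5p at 13435, 12816 and 11162. Below these came let-7c-5p at 8251 ± 202 (mean ± SD, n = 3), let-7a-5p at 6907 ± 236, let-7e-5p at 5966 ± 272, let-7b-5p at 2870 ± 112, let-7d-5p at 1697 ± 70.5 and miR-98-5p at 505 ± 12.3. In the WT and KD3 inputs each member's libraries lay apart from those of its neighbours in this order, which was the same in all 3 conditions. In KD6 input the neighbours from let-7g-5p to let-7c-5p, let-7c-5p to let-7a-5p, let-7a-5p to let-7e-5p and let-7b-5p to let-7d-5p overlapped. Each read spans a whole miRNA, so that levels need no correction for length, although adapter ligation is known to favour some miRNA ends over others.

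The 9 guide strands together made up a larger part of the miRNA reads after the IP than before it. Their sum was 19.0%, 18.9% and 16.7% of miRNA reads in the WT inputs and 36.3%, 38.4% and 41.5% in the WT IPs. The KD3 libraries held 17.3%, 17.2% and 15.9% in the inputs and 39.4%, 39.4% and 44.2% in the IPs. The KD6 libraries held 14.0%, 22.1% and 20.1% in the inputs and 45.9%, 44.3% and 44.1% in the IPs. No IP library fell within the range of any input. Reads outside the miRNA rows were 5.47 to 9.96% of mapped reads in the inputs and 14.8 to 38.2% in the IPs, and with all mapped reads as the denominator the family took a mean of 32.2% of the WT IP, 27.6% of the KD3 IP and 32.4% of the KD6 IP.

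**Figure D1:**
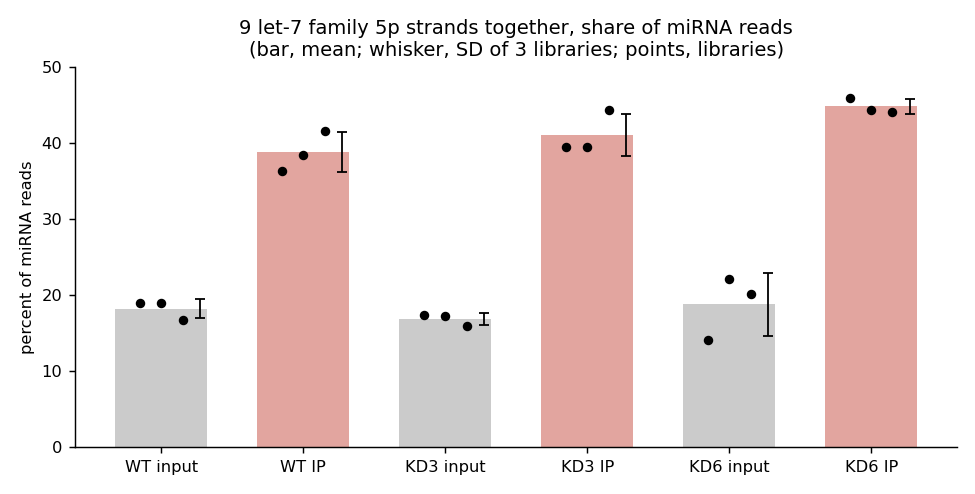
Percent of the miRNA reads of a library (vertical axis) held by the 9 let-7 family 5p strands together, for each of the 6 groups, with bars at the mean, whiskers at the SD of 3 libraries and points at single libraries in the order A, B, C. The IP libraries lie between 36.3% and 45.9%, above all inputs, which lie between 14.0% and 22.1%.

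All 9 guide strands were enriched by the Ψ-IP in WT cells. let-7e-5p rose most, from 5840, 6277 and 5779 CPM in the inputs to 35805, 35297 and 47830 in the IPs, a log2 ratio of 2.73 ± 0.17 (SE; edgeR quasi-likelihood test, adjusted p = 7.9e-12). All its IP libraries lay far above all inputs. let-7a-5p rose from 7121, 6946 and 6653 to 23127, 26704 and 34077 CPM (log2 ratio 2.02 ± 0.21, adjusted p = 3.9e-08). let-7i-5p, the most abundant member, rose least, from 93868, 86199 and 76345 CPM to 116902, 134374 and 135070 (log2 ratio 0.59 ± 0.16, adjusted p = 0.0025). Its libraries did not overlap between IP and input, but this call was lost without KD6 input A (log2 ratio 0.31), with TMM factors (0.29) and with library size set to total mapped reads (0.26). Between these extremes lay let-7b-5p at 1.96 ± 0.25, miR-98-5p at 1.86 ± 0.21, let-7g-5p at 1.63 ± 0.20, let-7f-5p at 1.57 ± 0.17, let-7d-5p at 1.54 ± 0.26 and let-7c-5p at 1.25 ± 0.23 on the log2 scale. Of all 550 miRNAs tested, 31.5% were called higher in the WT IP, and all 9 members were. The median log2 ratio was 1.63 over the members and −0.04 over all miRNAs tested. Without KD6 input A, a library outside this comparison that shares the fit, these medians were 1.35 and −0.23.

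The enrichment was present in both knockdown groups. In KD3, 9 of 9 members were called higher, against 34.4% of all miRNAs, and their median log2 ratio was 1.96 (−0.03 over all miRNAs). let-7e-5p again had the highest ratio, with inputs of 5218, 5166 and 5391 CPM and IPs of 39855, 39589 and 46885 (log2 ratio 3.00 ± 0.17, adjusted p = 1.9e-12). let-7i-5p had the lowest, with inputs of 95839, 85728 and 82854 CPM and IPs of 150486, 141428 and 134084 (0.69 ± 0.16, adjusted p = 0.00069). That ratio was 0.35 without KD6 input A and 0.11, not called, with library size set to total mapped reads. The other 7 lay between 1.51 (let-7c-5p) and 2.44 (let-7a-5p). Without KD6 input A all 9 were still called, and the median over the members was 1.62 (−0.26 over all miRNAs).

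In KD6, 9 of 9 members were called higher, against 35.8% of all miRNAs, and their median log2 ratio was 2.55 (−0.0044 over all miRNAs). Without KD6 input A all 9 were still called, but the median was 1.91 (−0.34 over all miRNAs), let-7b-5p went from 2.55 to 1.79, let-7d-5p from 2.83 to 2.07 and let-7a-5p from 3.17 to 2.50, level with let-7e-5p at 2.50, and the smallest was let-7i-5p at 0.94. With all libraries let-7a-5p had the highest ratio, with inputs of 4176, 7596 and 6422 CPM and IPs of 70821, 50692 and 42159 (log2 ratio 3.17 ± 0.22, adjusted p = 6.1e-11). let-7e-5p followed at 3.03 ± 0.17, with inputs of 3703, 4427 and 4265 CPM and IPs of 38429, 33524 and 29506. let-7d-5p reached 2.83 ± 0.28 with a wide spread, its inputs at 834, 2289 and 1737 CPM and its IPs at 16230, 11085 and 7705. let-7i-5p was again the lowest, at 1.34 ± 0.16, and that ratio was 0.29, not called, with library size set to total mapped reads. In each condition all IP libraries of all 9 members lay above all inputs. The share of all miRNAs with such a separation was not counted.

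The size of these ratios depends on how libraries are scaled, and the median of all miRNAs itself moved from −0.38 to 0.37 in WT, from −0.61 to 0.43 in KD3 and from −1.16 to 0.50 in KD6 over 14 processing alternatives. Set against the median of all miRNAs, the members' median was higher by 1.63 to 1.75 on the log2 scale in WT, by 1.95 to 2.04 in KD3 and by 2.50 to 2.66 in KD6. With 1 library left out at a time, it was higher by 1.49 to 1.79 in WT, by 1.81 to 1.96 in KD3 and by 2.26 to 2.64 in KD6. The direction was positive for every member in each of these alternatives and fits.

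**Figure D2:**
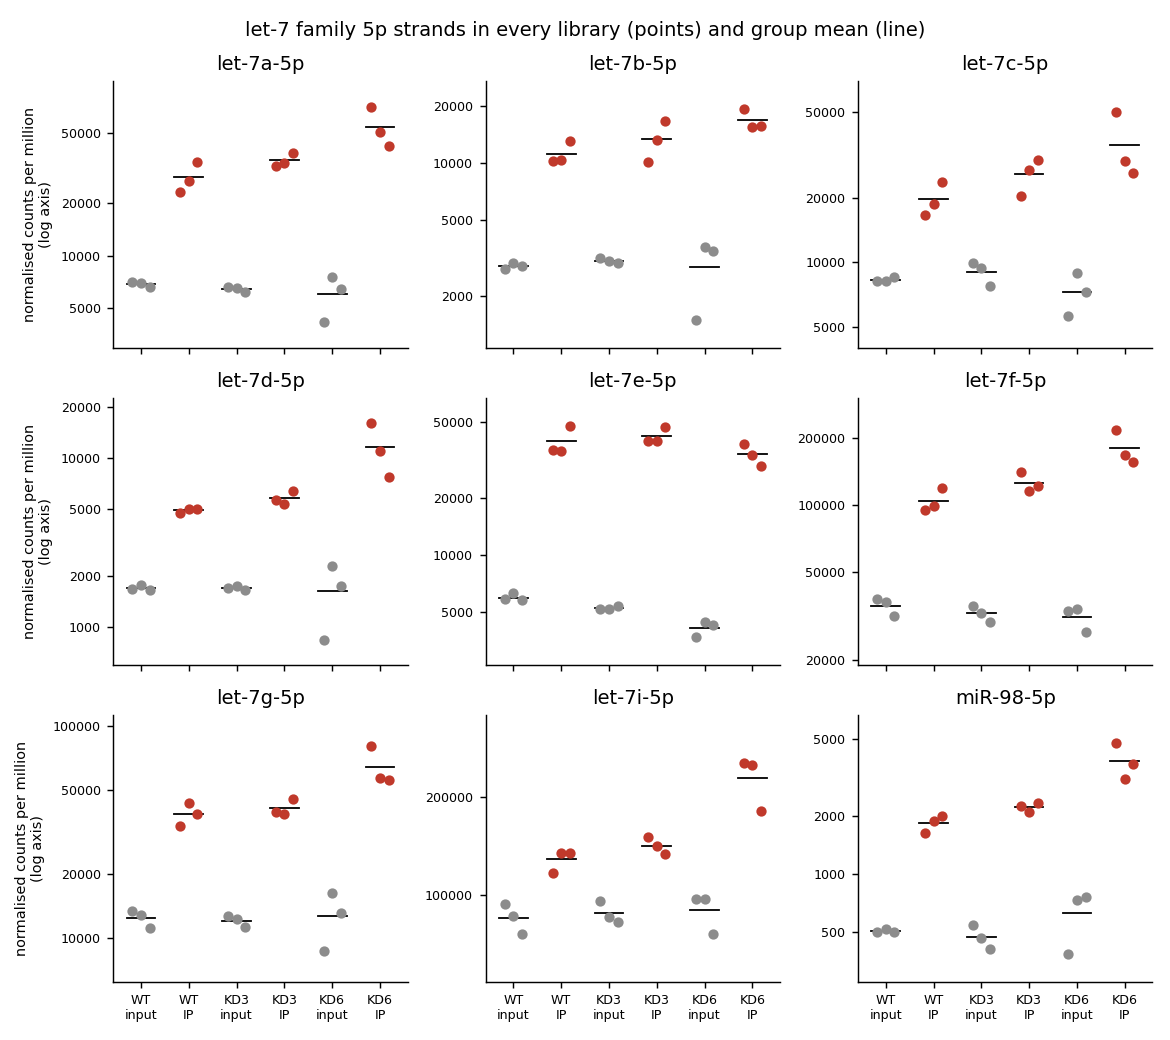
CPM, the read count scaled by library size (vertical log axis, own range in each panel) of the 9 members in the 6 groups, with input libraries in grey, IP libraries in red, points in the order A, B, C and a line at the group mean. In every panel the red points lie above the grey ones within a condition, least far for let-7i-5p, and KD6 input A is the lowest of its group for 7 of the 9 members.

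**Figure D3:**
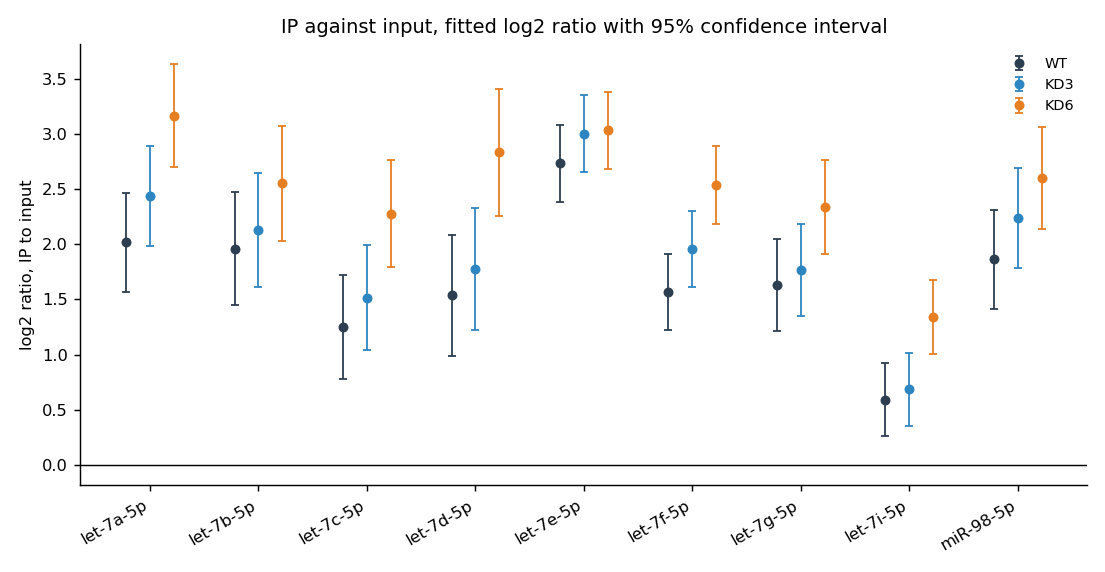
Fitted log2 ratio of IP to input (vertical axis) with its 95% confidence interval for each member in WT, KD3 and KD6. let-7i-5p lies lowest in all 3 conditions (0.59, 0.69 and 1.34) and let-7e-5p is highest in WT and KD3 (2.73 and 3.00).

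The members did not respond alike. As shares of the reads of the 9 members, which do not depend on scaling between libraries, let-7i-5p fell from a mean of 55.6% in the 9 inputs to 34.5% in the 9 IPs. It held 54.9%, 53.2% and 52.7% of the WT inputs, against 34.7%, 35.9% and 32.3% of the WT IPs. For KD3 the inputs stood at 56.2%, 54.7% and 55.9% and the IPs at 34.1%, 33.9% and 30.4%. For KD6 the inputs stood at 62.7%, 55.6% and 54.4% and the IPs at 33.9%, 40.5% and 35.0%. Every IP lay below every input. let-7e-5p rose from 3.25 to 8.54%, let-7a-5p from 4.10 to 8.01% and let-7f-5p from 20.8 to 28.5%, each with a higher share in the IP of 9 of 9 same-letter pairs. In a two-sided exact permutation test with labels exchanged within condition, these 4 and let-7b-5p and let-7d-5p each reached p = 0.00025, the smallest that 8000 arrangements allow (adjusted over the 9 members, p = 0.00038). let-7g-5p rose from 7.85 to 9.99% (exact permutation p = 0.00075) and miR-98-5p from 0.339 to 0.539% (exact permutation p = 0.0005), both passing after adjustment. let-7c-5p went from 5.17 to 5.54%, higher in the IP of 4 of 9 pairs, and did not pass (exact permutation p = 0.33). In all, 7 members rose, 1 fell and 1 did not pass. Counts of members made from 1 hairpin also had decimals, such as 28848.8 for let-7b-5p in WT input A, so some of their reads were divided with other loci. The part of such reads that belongs to other members was not tested.

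Shares add up to 100%, so that a fall of let-7i-5p lifts the other members. Among the reads of the other 8 members, a comparison added after seeing the data, let-7e-5p still rose from 7.29 to 13.0% and let-7a-5p from 9.19 to 12.2% (exact permutation, adjusted p = 0.001 for both). let-7c-5p fell from 11.6 to 8.45% (exact permutation, adjusted p = 0.0013) and let-7g-5p from 17.6 to 15.3% (exact permutation, adjusted p = 0.02). miR-98-5p, let-7b-5p, let-7d-5p and let-7f-5p did not pass there, with let-7f-5p at 47.0% of these reads in the inputs and 43.5% in the IPs.

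**Figure D4:**
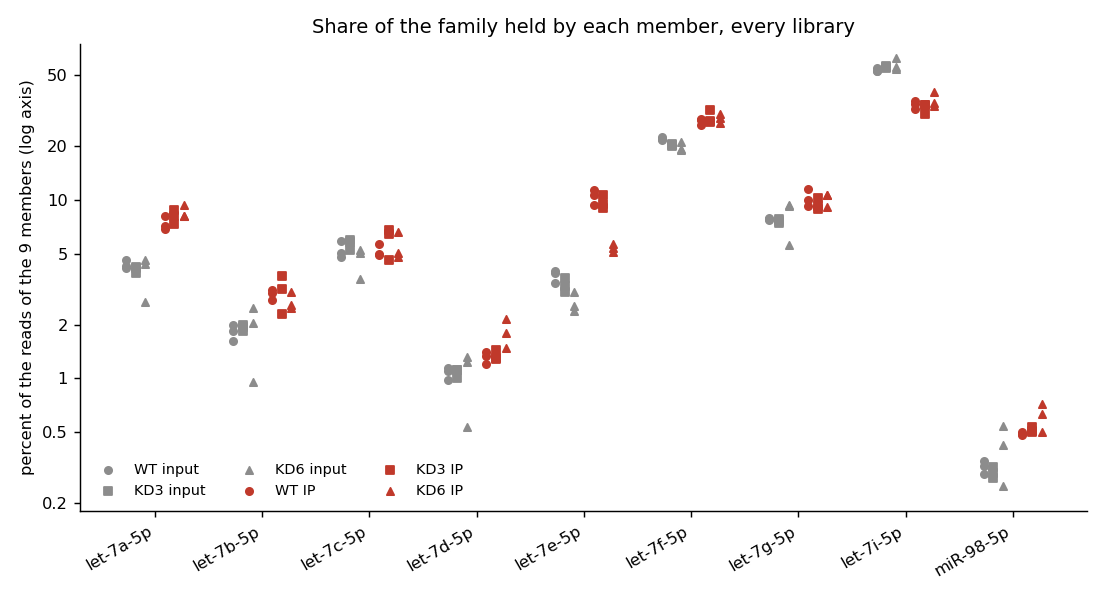
Percent of the reads of the 9 members (vertical log axis) held by each member in every library, with inputs in grey, IPs in red and symbols for the conditions. let-7i-5p lies at 52.7 to 62.7% in the inputs and 30.4 to 40.5% in the IPs, whereas let-7e-5p and let-7a-5p lie higher in every IP than in the inputs of the same condition.

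Read beside the sequences above, the member with the highest WT ratio, let-7e-5p, differed from let-7a-5p at position 9 alone, and the 3 members with a substitution at position 12 were let-7f-5p (G12A, log2 ratio 1.57), let-7g-5p (G12U, 1.63) and let-7i-5p (G12U, 0.59). The number of U bases was 10 in let-7i-5p and miR-98-5p, whose WT ratios were 0.59 and 1.86, 8 in let-7e-5p, 7 in let-7d-5p and 9 in the others. Members held 31.8 to 45.5% U (median 40.9%), against a median of 27.3% over the 475 tested miRNAs with a reference sequence. Over these 475, which share all libraries, the Spearman correlation of percent U with the WT log2 ratio was 0.08, that of percent G was 0.20 and that of percent A was −0.28. Effects of single bases cannot be told apart from each other with 9 sequences.

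**Figure D5:**
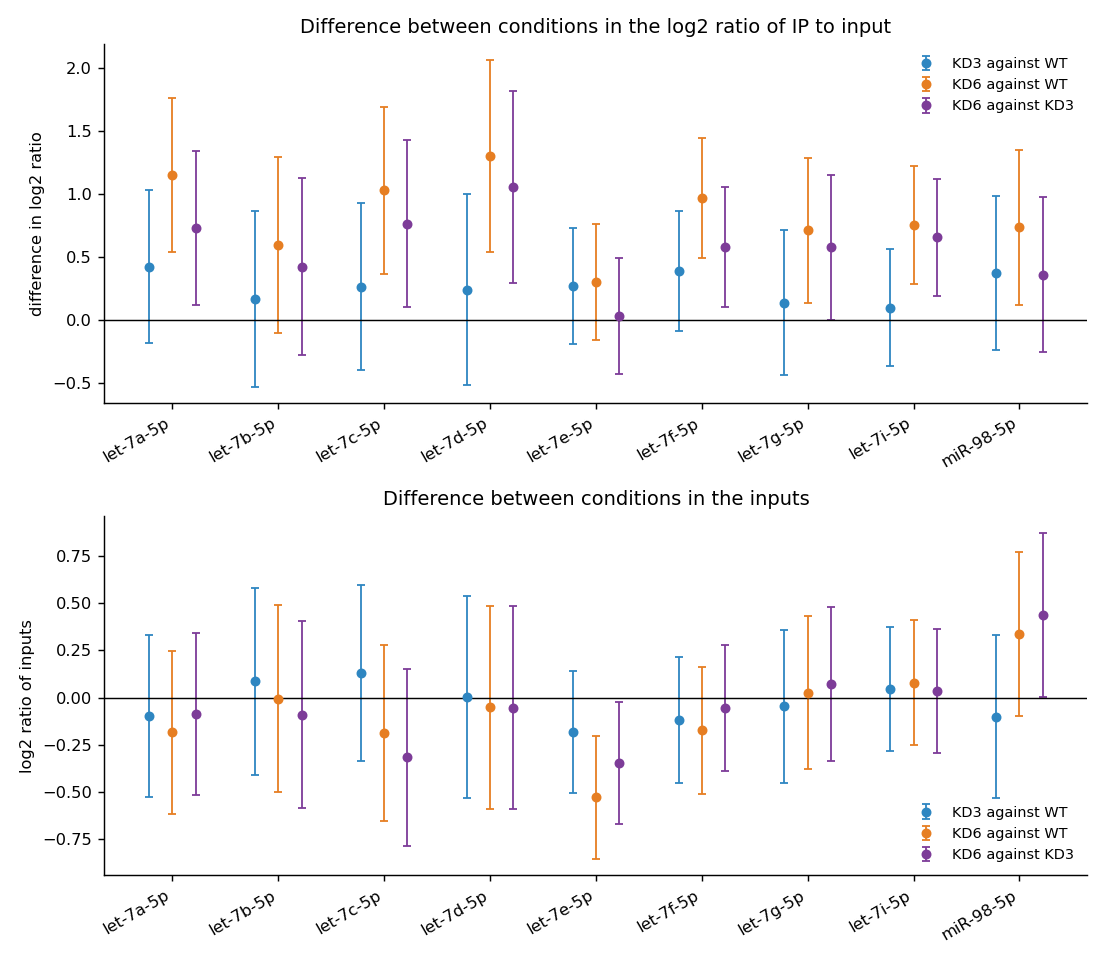
Upper panel, difference between conditions in the log2 ratio of IP to input; lower panel, log2 ratio between the inputs of the conditions; points are fitted values for each member, whiskers 95% confidence intervals without adjustment for the number of miRNAs. The KD6 against WT points of the upper panel lie between 0.30 and 1.30, and between 0.05 and 0.83 without KD6 input A. Of these members, 2 turn negative where library size is used without factors and 4 where all mapped reads are the library size. Farthest from 0 in the lower panel lie let-7e-5p at −0.53 and miR-98-5p at 0.34 in KD6 against WT. In KD6 against KD3 these are miR-98-5p at 0.44, let-7e-5p at −0.35 and let-7c-5p at −0.32.

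In edgeR no member passed the test for a change in IP enrichment with knockdown, whereas DESeq2 called 4 members between KD6 and WT. The test compared the log2 ratio of IP to input between conditions. The KD3 and KD6 comparisons with WT share the WT libraries and are not independent of each other. Between KD3 and WT, 0 of 9 members and 0% of all miRNAs were called by edgeR, and 0 members by DESeq2. At an unadjusted p under 0.05 were 0 members and 16 of all 550 miRNAs. The differences were 0.10 to 0.42 on the log2 scale, with a median of 0.26 (all miRNAs 0.06). For let-7i-5p the 95% confidence interval ran from −0.37 to 0.56 and for let-7a-5p from −0.19 to 1.03. With library size set to total mapped reads, 4 of these differences turned negative.

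Between KD6 and WT, 0 of 9 members and 0% of all miRNAs were called by edgeR, although 7 members had an unadjusted p under 0.05 (119 of all 550 miRNAs). let-7d-5p differed by 1.30 (95% confidence interval 0.54 to 2.06), let-7a-5p by 1.15 (0.54 to 1.76), let-7c-5p by 1.03 (0.37 to 1.69) and let-7f-5p by 0.97 (0.49 to 1.44). let-7i-5p differed by 0.75 (0.29 to 1.22), miR-98-5p by 0.74 (0.12 to 1.35), let-7g-5p by 0.71 (0.13 to 1.29) and let-7b-5p by 0.59 (−0.11 to 1.29). let-7e-5p differed least, by 0.30 (−0.16 to 0.76). The smallest adjusted p was 0.085, for let-7a-5p and let-7f-5p, and the median difference was 0.75 against 0.25 for all miRNAs. Without KD6 input A the differences were smaller, at 0.83 for let-7f-5p, 0.81 for let-7d-5p, 0.76 for let-7a-5p, 0.69 for let-7c-5p and 0.63 for let-7i-5p. Those of miR-98-5p, let-7g-5p, let-7b-5p and let-7e-5p were then 0.33, 0.31, 0.11 and 0.05. For each member this was the lowest value over the 18 fits that each left out 1 library. DESeq2 called 4 members higher in KD6 (let-7i-5p, let-7f-5p, let-7d-5p and let-7a-5p) among 23 miRNAs in all, and edgeR called 4 with no filter on low counts (14 of 1212 miRNAs in all), 5 without KD6 IP C (57 of 593) and 1, let-7f-5p, without KD6 input A (14 of 596). The members' median stood 0.49 to 0.75 above that of all miRNAs over 14 processing alternatives, but single members turned negative without factors, 2 where library size was the sum of miRNA reads and 4 where it was all mapped reads.

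The comparison of KD6 and KD3 shares its KD6 libraries with the one before. In it 0 of 9 members were called by edgeR and 0 by DESeq2, against 0.182% of all miRNAs in edgeR. At an unadjusted p under 0.05 were 5 members and 112 of all 550 miRNAs. The differences ran from 0.03 (let-7e-5p, 95% confidence interval −0.43 to 0.49) to 1.06 (let-7d-5p, 0.30 to 1.82), with a median of 0.58 (all miRNAs 0.16). Without KD6 IP C, let-7d-5p and let-7i-5p were called, among 63 of 593 miRNAs in that fit. Reads outside the miRNA rows were 14.8 to 18.6% in the WT IPs, 27.9 to 38.2% in the KD3 IPs and 23.2 to 30.3% in the KD6 IPs, and their part in these differences was not tested.

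In edgeR no member passed the test for a change in level before the IP with knockdown, whereas DESeq2 called let-7e-5p between KD6 and WT. Between the KD3 and WT inputs, 0 of 9 members and 0% of all miRNAs were called by edgeR, and 0 members by DESeq2. At an unadjusted p under 0.05 were 0 members and 44 of all 550 miRNAs. The differences of the members lay between −0.18 (let-7e-5p) and 0.13 (let-7c-5p) on the log2 scale. Between the KD6 and WT inputs, 0 of 9 members were called by edgeR and 1 by DESeq2, against 3.09% of all miRNAs in edgeR. An unadjusted p under 0.05 was seen for 1 member and for 78 of all 550 miRNAs. let-7e-5p came nearest, at 5840, 6277 and 5779 CPM in WT and 3703, 4427 and 4265 in KD6, a log2 difference of −0.53 (95% confidence interval −0.85 to −0.20, adjusted p = 0.077). Its groups did not overlap, and it was called lower by DESeq2 and with TMM factors. Without KD6 input A, miR-98-5p was called in its place (31 of 596 miRNAs in all). Between the KD6 and KD3 inputs, 0 of 9 members were called by edgeR and 0 by DESeq2, against 4% of all miRNAs in edgeR. An unadjusted p under 0.05 was seen for 2 members and for 97 of all 550 miRNAs. These 2 members were let-7e-5p at −0.35 (−0.67 to −0.02) and miR-98-5p at 0.44 (0.0022 to 0.87). Without KD6 input A, miR-98-5p was called (50 of 596 miRNAs in all).

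let-7e-5p also held lower shares of the reads of the 9 members in the KD6 libraries. Its share of the IPs was 10.6%, 9.43% and 11.4% for WT, 9.04%, 9.50% and 10.6% for KD3, then 5.12%, 5.40% and 5.70% for KD6. Its share of the inputs was 3.41%, 3.88% and 3.99% for WT, 3.06%, 3.30% and 3.64% for KD3, then 2.38%, 2.54% and 3.05% for KD6. The KD6 libraries lay below those of WT and KD3 among the IPs and, narrowly for 1 library, among the inputs, a difference for which no test was run.

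let-7f-5p, let-7c-5p and let-7a-5p are each made from 2 hairpins, and the table gave each hairpin a row. The 2 rows of a member were nearly equal in every library. let-7a-2 held 0.978 to 0.994 times the reads of let-7a-1, let-7c-2 held 0.996 to 1.01 times those of let-7c-1, and let-7f-2 held 1.02 to 1.04 times those of let-7f-1. The mature strand has the same sequence at both loci, and the pipeline divides a read over the places it fits, so that these rows cannot tell which hairpin was the source. The larger row held at most 51.0% of a member's reads, and rows were therefore summed.

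The number of distinct read sequences, summed over the rows of a member as the reads were, mostly followed the order of the reads. In the WT inputs let-7i-5p had 949.7 to 975.2 distinct sequences, let-7f-5p 737 to 827, let-7g-5p 544 to 610, let-7e-5p 417 to 452 and miR-98-5p 116.8 to 132.5. Members with more reads had fewer distinct sequences per 1000 reads, 0.823 to 0.991 for let-7i-5p, 1.65 to 1.98 for let-7f-5p, 5.06 to 6.83 for let-7e-5p and 16.4 to 22.4 for miR-98-5p. In the WT IPs let-7f-5p, at 725 to 971, stood above let-7i-5p, at 691 to 897, in all 3 libraries, although let-7i-5p had more reads, and let-7e-5p had 552 to 740. KD6 input A gave 163 for let-7i-5p and 7.6 for miR-98-5p. Values with decimals arise because sequences that fit several loci were divided as well.

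Other miRNAs that bear on the family were read beside it. let-7j differs from let-7i-5p at 1 position, the last base of the seed (G8U), and has 2 further bases at its end. It was listed at 3.31 to 4.47% of the reads of let-7i-5p in all 18 libraries, so that its log2 ratio of 0.54 ± 0.16 in WT cannot be told apart from reads of let-7i-5p. let-7k, which has the seed, held 0.2 to 59 reads a library, and miR-1961, the remaining miRNA with the seed in the reference, held at most 0.8. Of 12 passenger strands, which are the opposite arms of the same hairpins, 11 were tested, and 4 were called higher and 3 lower in the WT IP, where 31.5% of all miRNAs were called higher and 37.5% lower, shares near those of the list. They ran from let-7d-3p, at a mean of 256 CPM in the WT inputs and 1813 in the WT IPs, to let-7i-3p, at 26.4 and 0.455. In KD3, 5 of the 11 were called higher and 2 lower, beside 34.4% and 36.2% of all miRNAs. In KD6, 7 were called higher and 2 lower, beside 35.8% and 35.5%. Between KD6 and WT their median change in enrichment was 0.91, with 0 called, against 0.75 over the guide strands and 0.25 over all miRNAs.

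Hairpins of the miR-99/100 and miR-125 families lie beside let-7 hairpins in the genome, and their 5 miRNAs are given for comparison. miR-125a-5p and miR-99b-5p, which neighbour let-7e, were called higher in the WT IP (log2 ratios 2.14 ± 0.24 and 1.01 ± 0.17). miR-99a-5p was called lower (−2.57 ± 0.17), and miR-100-5p (0.35 ± 0.20) and miR-125b-5p (0.36 ± 0.26) did not pass. In all, 2 of 5 were called higher and 1 lower in WT, beside 31.5% and 37.5% of all miRNAs. The counts were 4 higher and 1 lower for KD3, where 36.2% of all miRNAs were called lower, then 2 higher and 1 lower for KD6, where 35.5% were.

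Over the 18 libraries, the levels of the 9 members were closely related, with Pearson's r of log2 CPM between 0.80 and 0.99 over 36 pairs (median 0.96). Outside the lists above, the miRNAs most like the summed family among 132 with a mean of at least 100 CPM were miR-1198-5p (r = 0.98), miR-485-5p (0.98), miR-26a-5p (0.98), miR-9-5p (0.98) and miR-155-5p (0.97). Their WT log2 ratios of IP to input were 2.51, 2.77, 1.31, 1.12 and 2.70. These levels share the step from input to IP in all libraries.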

How the data were processed

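Small RNA libraries (fraction under 200 nt, NEBNext kit) of Ψ-IP and input from NIH/3T3 cells were analysed, 3 for each of 6 groups, grouped by the labels. The authors trimmed the 3′ adapter and mapped reads with SeqImp (version not given in the sources used here) to mm10, with Ensembl 89 and miRBase 21 annotation. The authors deposited estimated counts of mapped reads and of distinct read sequences per miRNA and hairpin, with a read that fits more than 1 locus shared out over those loci.

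Rows were summed per mature miRNA and rounded to whole numbers. edgeR 4.0.16 (quasi-likelihood, R 4.3.3) was fitted to all 18 libraries with 6 group means, median-ratio factors (the authors' method, in place of TMM) and filterByExpr, which kept 550 miRNAs, with Benjamini-Hochberg adjustment over all of them at 0.05. A log2 ratio is IP over input or knockdown over WT, and SE is taken from the test statistic. The number of miRNAs called higher or lower in the WT IP was 173 and 206, and 221 and 169 with upper-quartile factors. In KD6 these were 197 and 195, against 132 and 255 with library size alone and 109 and 290 with total mapped reads, and in KD3 189 and 199, against 122 and 245 with total mapped reads. Shares of the family were compared by exact permutation within condition. DESeq2 1.42.0, other factors, filters and row choices and leaving out each library were alternatives. Scripts were tested on simulated data.

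No block was used in the main fit, since the study states no pairing. Same-letter libraries deviated together (r over 0.1 in all 3 letters, 188 miRNAs) for the KD3 and WT inputs and the KD6 and KD3 inputs, and not for IP and input. A letter effect shared by these inputs is therefore possible, and a fit with the letter as a block was among the alternatives. All 9 members, 12 passenger strands, 5 neighbour miRNAs and other miRNAs with the seed were named by rule, with the 5 miRNAs of most similar level. Members and lists were chosen with earlier results of these data known.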

Additional observations from a re-analysis of the deposited data

How the results depend on the processing

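Over 14 processing alternatives and 18 fits that each left out 1 library, 8 or 9 of 9 members were called higher in the IP in WT, 8 or 9 in KD3 and 8 or 9 in KD6, and let-7i-5p was the member lost each time. Members called for a change in enrichment between KD6 and WT numbered 4 with DESeq2, 4 with no filter on low counts and 1 with the largest row and TMM factors, and between KD6 and KD3 1 with no filter. Leaving out 1 library gave 0 to 5 calls for KD6 against WT and 0 to 2 for KD6 against KD3. For the inputs, KD6 against WT gave 1 call with DESeq2, 1 with TMM factors and 1 with the largest row and TMM factors, and leaving out 1 library gave 0 to 1 in KD6 against WT and 0 to 1 in KD6 against KD3. Over all miRNAs, the calls for a change in enrichment between KD6 and WT went from 0 to between 0 and 57 as processing or 1 library changed, those between KD6 and KD3 from 1 to between 0 and 63, and those between the inputs from 0 to between 0 and 75 (KD3 and WT), from 17 to between 6 and 31 (KD6 and WT) and from 22 to between 3 and 50 (KD6 and KD3). With library size set to total mapped reads, 51 miRNAs were called between KD6 and WT, and 0 of these were higher. With the largest row and TMM factors 6 were called, all 6 of them higher. The cause of these shifts was not tested.

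Some differences in enrichment changed sign, all of them uncalled in both fits. With library size set to total mapped reads, KD3 against WT was −0.08 for let-7b-5p, −0.016 for let-7d-5p, −0.12 for let-7g-5p and −0.15 for let-7i-5p, KD6 against WT was −0.22 for let-7b-5p, −0.46 for let-7e-5p, −0.094 for let-7g-5p and −0.073 for miR-98-5p, and KD6 against KD3 was −0.14 for let-7b-5p, −0.48 for let-7e-5p and −0.20 for miR-98-5p. With library size alone, KD6 against WT was −0.076 for let-7b-5p and −0.31 for let-7e-5p, and KD6 against KD3 was −0.25 for let-7b-5p, −0.58 for let-7e-5p, −0.072 for let-7g-5p and −0.29 for miR-98-5p. With TMM factors let-7e-5p was −0.019 in KD6 against KD3. Leaving out 1 library gave −0.024 to 0.36 for let-7b-5p in KD3 against WT, and −0.011 to 0.62 for let-7b-5p and −0.17 to 0.13 for let-7e-5p in KD6 against KD3.

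Of the 9 members, 8 changed their share of the family, and among the reads of the other 8 members 4 did, where let-7f-5p (−3.48 percentage points), let-7c-5p (−3.17), let-7g-5p (−2.36) and let-7d-5p (−0.081) turned negative; let-7c-5p was at −0.030 in WT alone. Within WT, KD3 or KD6 alone, 3 against 3 libraries give too few arrangements for any share to pass. With the largest row per miRNA the family took 16.5% in WT input, 35.3% in WT IP, 15.3% in KD3 input, 37.3% in KD3 IP and 41.0% in KD6 IP. With total mapped reads as the denominator it held 15.2% in KD3 input, 32.2% in WT IP, 27.6% in KD3 IP and 32.4% in KD6 IP.

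With the letter as a replicate block, 9 of 9 members were called higher in the IP in each condition and 0 in the other comparisons. With IP and input as a pair (replicate block), 9 of 9 were called higher in each condition and 0 for a change in enrichment. That fit held no comparison of inputs. The sign of each IP and input pair (replicate block) called 8 members for their share, and the block changed no call where it was fitted. The depth of KD6 input A limits the KD6 results, and it held 7.6 distinct sequences and 78.1 reads of miR-98-5p. Leaving it out also lowered the members' median log2 ratio from 1.63 to 1.35 in WT and from 1.96 to 1.62 in KD3. The part of counting error in these shifts was not tested.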
